A study of Mus musculus with 16 samples.

Results

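The genes St6galnac1 and St6galnac2 lie next to each other on mouse chromosome 11, with the long non-coding RNA gene BC018473 and the pseudogene Gm11735 between them. All rows with these 4 gene names were taken from the deposited tables of memory CD4+ T cell RNA-Seq, which gave 5 of the 56748 genes listed, since St6galnac2 is present under 2 identifiers. The genes were selected on their differential expression between the WT mice of both HP1 lines, where each was among the 10 genes with the smallest p. The values in WT cells are therefore given as a description. The KO samples did not enter that ranking, and the difference between the lines was also computed there. Littermates share their line and the genes were chosen with results of these data known, so that p-values in KO cells set the difference against the spread between samples and are not independent evidence for it.

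RNA-Seq was performed on splenic CD4+ T cells sorted as memory cells, that is, CD44high, CD62L- and CD25low/-, with 4 samples in each of 4 groups and 16 samples in all. HP1α (gene Cbx5) and HP1γ (gene Cbx3) are proteins of heterochromatin that bind methylated histones, and they were inactivated in separate mouse lines kept on a mixed 129/Sv and C57BL/6 background. In the HP1α line, floxed Cbx5 had been deleted with CMV-cre, which is active in every tissue, and crosses of heterozygotes gave the KO mice and their WT littermates. In the HP1γ line, KO and WT littermates were both homozygous for floxed Cbx3, and the KO also carried Cd4-cre, which is active in T cells. Line, genetic background and any batch of mice or libraries cannot be told apart in a comparison of both lines. Within the HP1γ line, an effect of Cre cannot be told apart from one of the missing protein. The labels do not say whether each sample came from its own mouse, so that p-values measure the spread between these samples.

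St6galnac1 and St6galnac2 encode sialyltransferases of the Golgi. They add sialic acid to the N-acetylgalactosamine that starts mucin-type O-glycans on serine and threonine. ST6GALNAC1 makes the sialyl-Tn structure and is best known from mucus-producing epithelium, while ST6GALNAC2 acts mainly on the longer core structures. On T cells, O-glycans and their sialic acid are carried by abundant surface glycoproteins such as CD43.

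The 5 genes span 100205 bp of chromosome 11 on GRCm39, from 116566129 to 116666333. The first St6galnac2 identifier, ENSMUSG00000057286, is protein-coding, lies on the minus strand (116566129 to 116585713) and has 5908 exonic bp. The second, ENSMUSG00000110170, is a shorter protein-coding gene model on the same strand (116566129 to 116572116) with 3863 exonic bp, of which 68.9% are exonic in the first as well. Reads from the 2662 bp they share cannot be assigned to either with certainty, and the identifiers are not independent measurements. Gm11735 (ENSMUSG00000078586, minus strand, 116629888 to 116640659) is annotated as an unprocessed pseudogene, that is, a duplicated copy which kept its exon structure. BC018473 (ENSMUSG00000056032, plus strand, 116642993 to 116650199) is a lncRNA gene and shared no stretch of at least 150 nt at 95% identity with transcripts of other genes. St6galnac1 (ENSMUSG00000009588, minus strand, 116655851 to 116666333) is protein-coding.

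Gm11735 is a near copy of St6galnac1, so that reads of one may be counted for the other. The 1581 nt of its transcript aligned without a gap to the coding part of St6galnac1, with 32 substitutions and an identity of 97.98%. The longest stretch without a difference was 402 nt, and 26.3% of the 1432 windows of 150 nt in the alignment held no difference. The following 90 bases are shown because they hold the most differences (10) of any such window inside a single coding exon of St6galnac1, and they show the bases by which reads of both genes can be separated. Both were read from GENCODE transcripts on GRCm39 and are written 5′ to 3′ on the minus strand, St6galnac1 from chr11:116660106-116660195 and Gm11735 from chr11:116633437-116633526, with the differing bases in capitals.
St6galnac1: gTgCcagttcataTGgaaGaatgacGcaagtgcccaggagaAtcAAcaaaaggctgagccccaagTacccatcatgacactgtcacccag
Gm11735: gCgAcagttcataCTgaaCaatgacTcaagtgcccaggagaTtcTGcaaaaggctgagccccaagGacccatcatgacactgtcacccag

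Depth was similar in all groups, with total counts between 26694045 and 40199637 per sample. The limit of detection was set at 3 counts, a share of 7.46e-06% to 1.12e-05% depending on the sample. Cbx5 was at 23.0 to 29.0 CPM in HP1α KO and at 33.8 to 54.0 CPM in its WT littermates, and Cbx3 was at 45.9 to 50.2 CPM in HP1γ KO and at 73.4 to 92.4 CPM in its WT littermates. In the other line, Cbx5 was at 20.1 to 29.8 CPM in HP1γ KO, which overlapped with HP1α KO, and at 27.1 to 37.3 CPM in HP1γ WT, and Cbx3 was at 69.2 to 88.9 CPM in HP1α KO and at 75.5 to 111.8 CPM in HP1α WT. These are RNA levels per gene. In naive CD4+ T cells, the authors reported HP1α protein as absent and HP1γ protein as almost fully lost in the respective KO. CPM are counts scaled to library size after TMM normalization over the 16 samples. Markers of CD4+ T cells (Cd3e, Cd3d, Cd4, Trac and Cd44) summed to 2603.9 to 2973.0 CPM in every sample. Cd44, on which the cells were sorted, was lower in every HP1α sample than in any HP1γ sample. Within KO cells 15.9% of all genes tested separated the lines in this direction, and within WT cells 10.7%. For Cd44 the lines were compared in edgeR as well. Its log2 fold change was -0.32 in KO and -0.35 in WT cells (adjusted p = 0.00416 and 0.0104 in edgeR). Cd3d was higher in HP1α KO, with 0.27 (adjusted p = 0.00546), and had 0.10 in WT cells (adjusted p = 0.291). Cd3e, Cd4 and Trac had no adjusted p under 0.05 in either line comparison.

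In both KO and WT cells, the 5 genes were low in the HP1α line and high in the HP1γ line. St6galnac1 stood at 1.98, 3.59, 1.79 and 1.18 CPM in HP1α KO and reached 24.9, 21.5, 29.9 and 31.2 CPM in HP1γ KO. It was at 2.66, 2.04, 2.97 and 2.37 CPM in HP1α WT and at 43.0, 36.8, 34.4 and 32.2 CPM in HP1γ WT. The lines did not overlap in either genotype, and the lowest HP1γ sample was several times above the highest HP1α sample. Between KO groups the means were 2.14 ± 1.03 and 26.9 ± 4.49 CPM (SD, n = 4 each), a difference of 12.6-fold. The log2 fold change was -3.67 with a standard error (SE) of 0.273 (adjusted p = 9.23e-05 in edgeR's quasi-likelihood test over all genes). In WT cells the means were 2.51 ± 0.399 and 36.6 ± 4.68 CPM, and the log2 fold change was -3.88 (SE 0.140).

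St6galnac2 showed the same order of the lines with a larger difference. Its identifier ENSMUSG00000057286 was at 2.85, 2.26, 2.50 and 2.06 CPM in HP1α KO and at 81.7, 77.7, 54.3 and 94.1 CPM in HP1γ KO. In WT cells it was at 4.03, 1.59, 2.75 and 2.30 CPM in the HP1α line and at 119.7, 104.1, 59.3 and 68.0 CPM in the HP1γ line. Again no sample of one line reached the other. The KO groups differed 31.8-fold (2.42 ± 0.341 against 77.0 ± 16.6 CPM), with a log2 fold change of -4.99 (SE 0.183, adjusted p = 3.46e-07 in the same edgeR test). In WT cells the log2 fold change was -5.05 (SE 0.310).

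The shorter identifier of St6galnac2, ENSMUSG00000110170, followed the longer one at a lower level. It was at 0.450, 0.636, 0.500 and 0.438 CPM in HP1α KO and at 12.0, 10.6, 7.12 and 13.2 CPM in HP1γ KO. It was at 0.344, 0.428, 0.808 and 0.631 CPM in HP1α WT and at 26.9, 13.9, 9.39 and 11.6 CPM in HP1γ WT. The HP1α values rested on 11 to 22 estimated counts per sample, whereas the HP1γ values rested on 218 to 830. The KO groups differed 21.2-fold (log2 fold change -4.41, SE 0.237, adjusted p = 6.92e-06 in edgeR), and the log2 fold change between WT groups was -4.82 (SE 0.391). With the counts of both identifiers summed, the log2 fold change of St6galnac2 was -4.90 in KO and -5.01 in WT cells.

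Among those of the 5 genes with counts in both KO groups, the lncRNA BC018473 had the largest ratio between the lines. It held 5, 5, 0 and 2 counts in the HP1α KO samples and 2177, 2620, 2297 and 4087 in the HP1γ KO samples, or 0.125, 0.159, 0 and 0.0515 CPM against 82.5, 89.1, 75.0 and 104.8 CPM. In WT cells it held 2, 22, 9 and 0 counts in the HP1α line and 2566, 3022, 1578 and 1930 in the HP1γ line. BC018473 thus held at most 22 counts in a sample of the HP1α line and was at a level like that of St6galnac2 in the HP1γ line. The summed counts of 12 and 11181 in the KO groups gave a ratio of 1072 with a 95% interval of 613.4 to 2075.3, which covers counting error only. The fitted log2 fold change was -9.98 (SE 0.261). In WT cells the summed counts were 33 and 9096, a ratio of 264.8 (188.4 to 385.0), and 22 of the 33 counts came from 1 sample, HP1α WT replicate 2. On the TPM scale the ratio of the means was 668.0 in KO and 542.5 in WT cells.

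Gm11735, the pseudogene copy of St6galnac1, held no count in any of the 4 HP1α KO samples. In HP1γ KO it was at 1.86, 1.67, 1.31 and 2.80 CPM (49, 49, 40 and 110 estimated counts). Against the limit of 3 counts per sample (0.0840 CPM on average), it was at least 22.7-fold lower in HP1α KO. In WT cells it was at 0.0312 CPM in 1 HP1α sample and at 0 in the other three, and at 2.85, 2.22, 1.43 and 1.97 CPM in the HP1γ samples. The 1 count (rounded) against 287 gave a ratio of 275.7 with a 95% counting interval of 49.1 to 10928.9.

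In KO cells, all 5 genes passed both thresholds used for a differentially expressed gene (adjusted p under 0.05 and absolute log2 fold change above 1) and were lower in the HP1α line. Of 15020 genes tested, 3.83% were called lower in HP1α KO than in HP1γ KO and 4.33% were called in either direction. For each of the 5 genes every HP1α KO sample was below every HP1γ KO sample, which was so for 15.9% of all genes tested. For St6galnac1 and both identifiers of St6galnac2, an exact two-sided permutation test of 4 against 4 samples gave p = 0.0286, the smallest value that this design allows. Gm11735 and BC018473 passed the filter on low counts only through the HP1γ samples and had to differ once they passed, so that no p is given for them and the count is no support for a difference. In the WT comparison, from which the genes were chosen, all 5 passed both thresholds as well. There 1.59% of 14804 genes were called lower in the HP1α line, 1.9% were called in either direction, and 10.7% had every HP1α sample below every HP1γ sample. By p the 5 genes stood at ranks 1, 3, 5, 8 and 10 in WT cells, the last being St6galnac2 (ENSMUSG00000110170), and the next gene of the same locus was Cygb at rank 14. In KO cells St6galnac2 had ranks 2 and 5 and St6galnac1 had rank 10. BC018473 and Gm11735 are not ranked there, since no p is given for them.

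**Figure D1:**
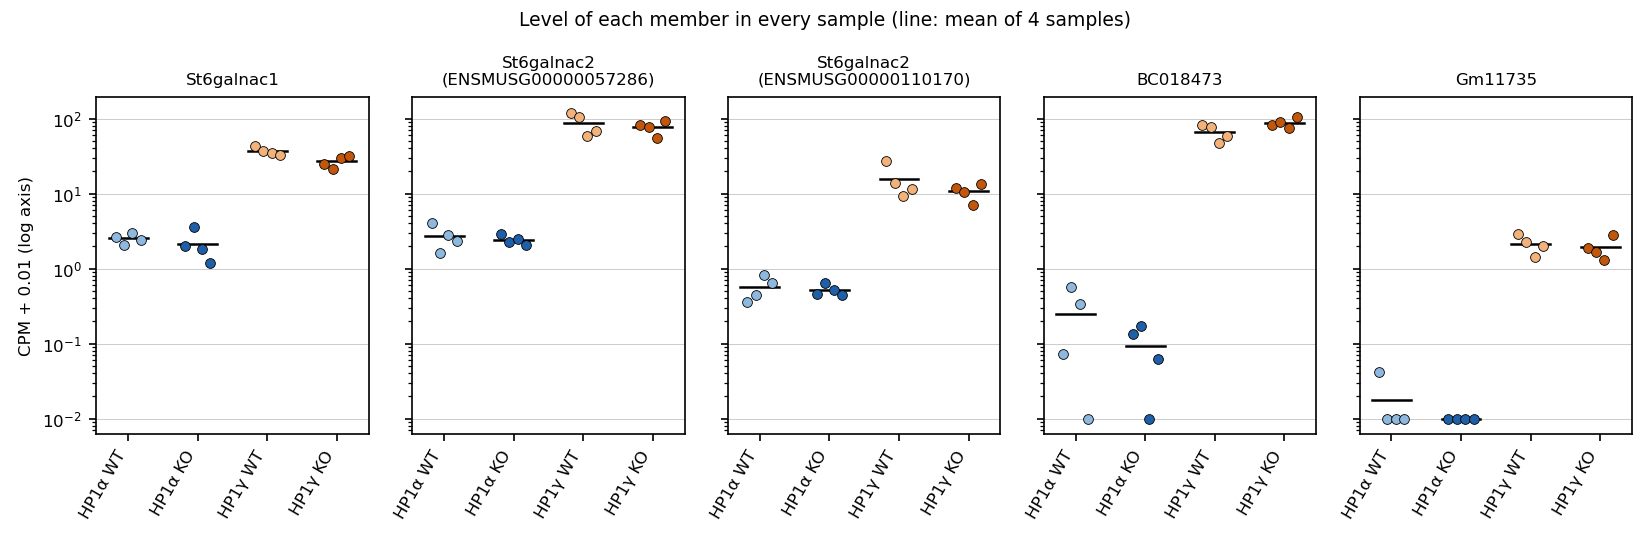
Level of the 5 genes in each of the 16 samples, in CPM with 0.01 added (log axis). Each point is a sample and each line the mean of 4 samples. All HP1γ points lie above all HP1α points in every panel, and BC018473 and Gm11735 reach 0 in samples of the HP1α line.

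Levels of different genes were compared as TPM, which account for transcript length. In HP1γ KO the order was BC018473 (57.0 ± 10.4 TPM, SD, n = 4), St6galnac2 ENSMUSG00000057286 (51.8 ± 11.7 TPM), St6galnac1 (19.1 ± 3.17 TPM), St6galnac2 ENSMUSG00000110170 (11.3 ± 2.83 TPM) and Gm11735 (2.14 ± 0.748 TPM). The first and second overlapped between samples, whereas each further step separated all samples. In HP1γ WT the order was St6galnac2 ENSMUSG00000057286 (52.2 ± 14.7 TPM), BC018473 (42.7 ± 8.87 TPM), St6galnac1 (24.7 ± 2.30 TPM), ENSMUSG00000110170 (15.1 ± 7.02 TPM) and Gm11735 (2.23 ± 0.527 TPM). There the first and second overlapped, as did St6galnac1 and ENSMUSG00000110170. In HP1α KO, St6galnac2 ENSMUSG00000057286 (1.76 ± 0.411 TPM) and St6galnac1 (1.46 ± 0.722 TPM) overlapped and came first, followed by ENSMUSG00000110170 (0.505 ± 0.102 TPM) and BC018473 (0.0853 ± 0.0636 TPM). In HP1α WT the values were 1.72 ± 0.587 TPM, 1.70 ± 0.219 TPM, 0.546 ± 0.182 TPM and 0.0788 ± 0.0867 TPM in the same order. BC018473 was thus among the 2 highest of the 5 genes in the HP1γ line and next to the lowest in the HP1α line. Together the 5 genes made up 0.0109% to 0.0176% of all TPM in samples of the HP1γ line and 0.000252% to 0.000515% in samples of the HP1α line.

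The samples of the HP1γ line did not vary alike for all 5 genes. In HP1γ KO, replicate 3 was the lowest of the 4 samples for both identifiers of St6galnac2, for BC018473 and for Gm11735, but the second highest for St6galnac1. In HP1γ WT, replicate 3 was again the lowest for these 4 identifiers, and St6galnac1 was at 34.4 CPM there, within 32.2 to 43.0 CPM for the group. The ratio of St6galnac2 (both identifiers) to St6galnac1 on the TPM scale was therefore lowest in replicate 3 of either group, at 2.16 in KO and 1.95 in WT. In the other samples of the HP1γ line it was between 2.39 and 3.92. In the HP1α line the ratio was lower, with a mean of 1.73 ± 0.522 in KO and 1.33 ± 0.208 in WT, against 3.35 ± 0.807 in HP1γ KO and 2.70 ± 0.641 in HP1γ WT. Between the KO groups this difference did not pass an exact permutation test (p = 0.0571 and 0.171 after adjustment over 6 tests of proportions). The shorter identifier held 17.5% ± 3.76 of the St6galnac2 counts in HP1α KO and 12.2% ± 0.538 in HP1γ KO, which did not overlap but did not pass after adjustment either (exact permutation p = 0.0286, adjusted p = 0.171). None of the 4 comparisons of these proportions between KO and WT within a line passed. Gm11735 held 4.14% to 8.26% of the counts of Gm11735 and St6galnac1 in HP1γ KO and 3.99% to 6.21% in HP1γ WT, with replicate 3 lowest in each. It held none in 7 samples of the HP1α line and 1.70% in the eighth.

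**Figure D2:**
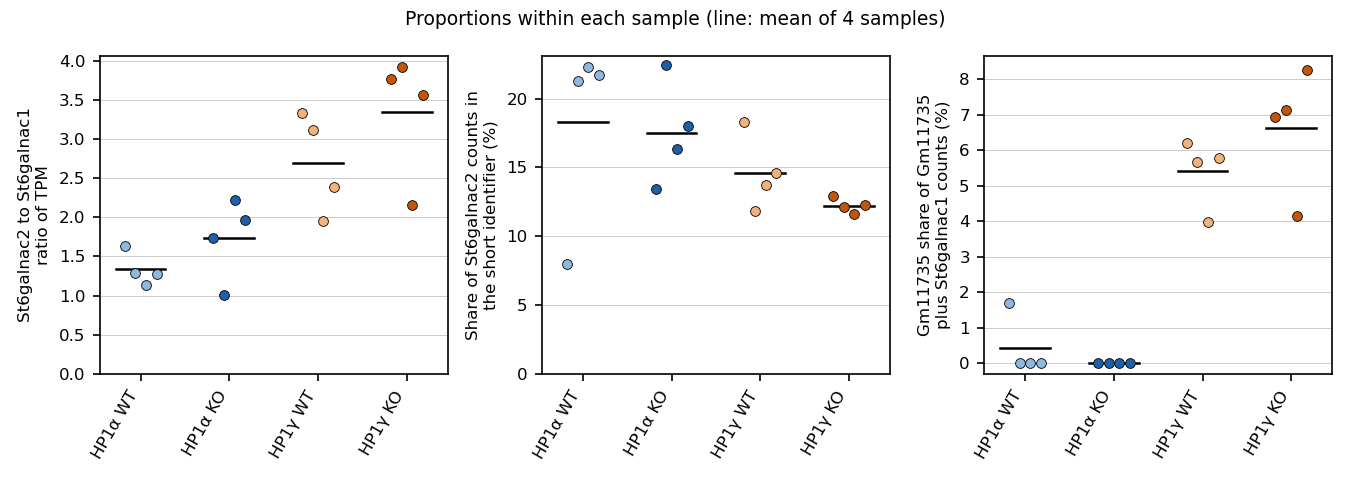
Ratio of St6galnac2 to St6galnac1 (TPM), share of St6galnac2 counts in the shorter identifier ENSMUSG00000110170 (%), and share of Gm11735 in the counts of Gm11735 and St6galnac1 (%), in each of 16 samples with the mean of each group as a line. The ratio reaches from 1.01 to 2.22 in HP1α KO and from 2.16 to 3.92 in HP1γ KO.

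The loss of HP1α or of HP1γ was compared with the WT littermates of the same line, and none of the 5 genes was called by edgeR or DESeq2. These comparisons share the WT samples with the comparison from which the genes were chosen. In the HP1α line, St6galnac1 had a log2 fold change of -0.23 (SE 0.314, adjusted p = 0.959 in edgeR), and the identifiers of St6galnac2 had -0.14 and -0.12. BC018473 and Gm11735 did not pass the filter on low counts there, and none of the 3 tested identifiers had an unadjusted p under 0.05. Of 14881 genes tested in that line 0% were called, 635 had an unadjusted p under 0.05, and DESeq2 called 2. In the HP1γ line, St6galnac1 was at 21.5 to 31.2 CPM in KO and at 32.2 to 43.0 CPM in WT samples. Its log2 fold change was -0.44 (SE 0.128), which gave p = 0.0286 in the exact permutation test and 0.260 in edgeR after adjustment over all genes. The share of all genes without overlap was not computed for this comparison. As St6galnac1 was chosen with these WT samples, the separation is given as a description. BC018473 was at 75.0 to 104.8 CPM in HP1γ KO and 47.9 to 83.1 CPM in WT (log2 fold change 0.41, SE 0.165, adjusted p = 0.385 in edgeR), so that these groups overlapped. The log2 fold changes of St6galnac2 were -0.18 and -0.51 and that of Gm11735 was -0.13, all with overlapping groups, and 2 of the 5 had an unadjusted p under 0.05, against 1784 of 14975 of all genes. In this comparison 0.234% of 14975 genes were called.

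The difference between the KO effects of both lines, tested as an interaction, passed for none of the 5 genes in edgeR or DESeq2 (1 unadjusted p under 0.05), while 0.0317% of 15776 genes were called. It amounted to 0.20 for St6galnac1 (SE 0.321), 0.06 and 0.41 for the identifiers of St6galnac2, -1.95 for BC018473 (SE 0.910, adjusted p = 0.511 in edgeR) and -1.47 for Gm11735. The value of BC018473 rested on few counts in the HP1α line and was -0.93 without HP1α WT replicate 2, which held 22 of its counts. That of Gm11735 rested on 1 count and was 0.15 without HP1α WT replicate 1. The sizes of the line difference in KO and WT cells were thus not shown to differ.

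**Figure D3:**
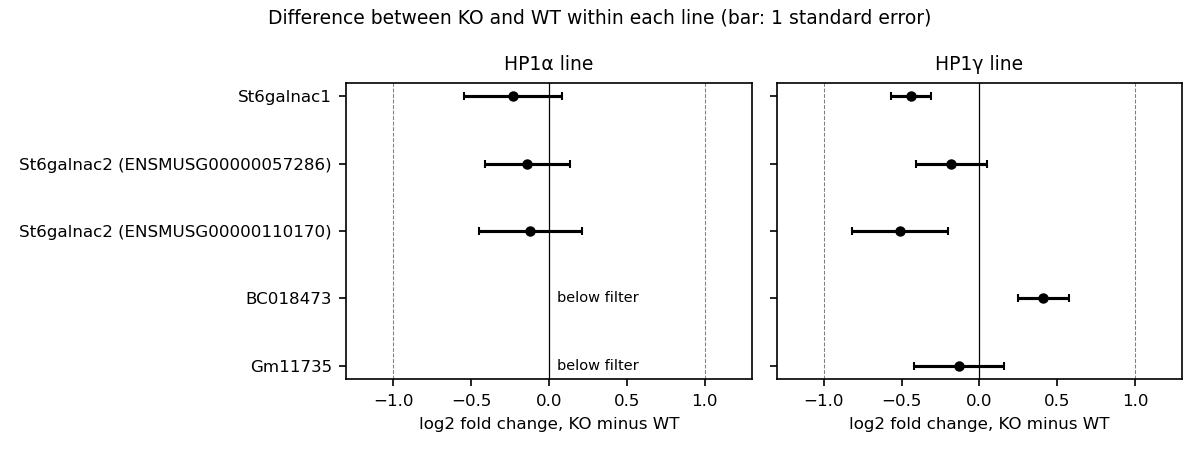
Log2 fold change of KO against WT littermates in each line for the 5 genes, with 1 standard error. Dashed lines mark the threshold of 1, which no gene reaches, and the 2 genes below the filter on low counts in the HP1α line are marked as such.

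Genes around the locus were examined within 500 kb of the span, where 50 further genes are listed and 22 were tested in WT and 23 in KO cells. In KO cells 3 of 23 were called (13.0%, against 4.33% of all genes), and in WT cells 2 of 22 (9.09%, against 1.9%). Of these, Cygb and Mxra7 passed the filter on low counts only through samples of the HP1γ line and had to differ once they passed, so that the shares are no support for a difference, and Mettl23 was the other gene called. Cygb, the gene of cytoglobin, a globin that binds oxygen, was the nearest tested gene before the span, at a distance of 20.7 kb (116535970 to 116545406). It was at 13.8, 10.7, 4.80 and 12.6 CPM in HP1γ KO and at 0.150, 0, 0.235 and 0.129 CPM in HP1α KO, with no overlap (log2 fold change -6.28, SE 0.512). In WT cells it was at 8.55, 8.99, 2.82 and 5.41 CPM in the HP1γ line and at most 0.189 CPM in the HP1α line (log2 fold change -6.09). Like St6galnac2 and BC018473, Cygb was lowest in replicate 3 of both HP1γ groups.

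On the other side of the span, Mxra7, a gene of a protein associated with the extracellular matrix, was the nearest tested gene in KO cells, at 27.6 kb. Its 2 counts in HP1α KO against 60 in HP1γ KO gave a ratio of 34.5 with a 95% counting interval of 9.15 to 291.5 (log2 fold change -4.79). Both counts came from HP1α KO replicate 3, and without it the fitted log2 fold change was -7.04. In WT cells Mxra7 did not pass the filter, with 6 counts against 49. Mettl23, the gene of a protein methyltransferase, lies 67.1 kb after the span and had the opposite direction. It was at 38.2 to 41.2 CPM in HP1α KO and at 11.3, 13.8, 21.9 and 15.1 CPM in HP1γ KO (log2 fold change 1.37, SE 0.165, adjusted p = 0.000977 in edgeR). In WT cells it was at 37.3 to 42.3 CPM in the HP1α line and at 12.7, 14.4, 23.7 and 25.4 CPM in the HP1γ line (log2 fold change 1.03, adjusted p = 0.0114 in edgeR). The WT fold change of Mettl23 was 1.00, 0.88 and 0.92 without HP1α WT replicate 2, HP1γ WT replicate 1 and HP1γ WT replicate 2, and was then not above the threshold. In HP1γ KO, the sample with the lowest Cygb and St6galnac2 was the one with the highest Mettl23. In HP1γ WT it was not, as replicate 3 had the lowest Cygb and St6galnac2, and Mettl23 was highest in replicate 4.

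The genes between and beside these differed less. Snhg16, a lncRNA gene on the opposite strand that overlaps 971 exonic bp of the longer St6galnac2 identifier and 503 of the shorter, was at 13.5 to 20.1 CPM in HP1α KO and 17.0 to 21.4 CPM in HP1γ KO (log2 fold change -0.27, adjusted p = 0.13 in edgeR). The library kit keeps strand, but whether the quantification used strand is not given in the sources used here. In WT cells the nearest tested gene after the span was Jmjd6, a gene of a hydroxylase of splicing factors, at 61.9 kb, with a log2 fold change of 0.35 in WT and 0.40 in KO cells. Ubald2 and Ube2o, a ubiquitin-conjugating enzyme, lie before the span. They had log2 fold changes of -0.73 and -0.52 in KO cells (adjusted p = 0.0113 and 0.00348 in edgeR), below the threshold on size. Without that threshold, 12 of 23 genes within 500 kb had an adjusted p under 0.05 in KO cells, 5 of them lower in the HP1α line. In WT cells 7 of 22 had, 3 of them lower. Of all genes, 4921 of 15020 and 1896 of 14804 had. These neighbours include Cygb and, in KO cells, Mxra7, which had to differ once they passed the filter. From 500 kb to 1 Mb from the span 0 of 21 genes were called in either genotype by edgeR or DESeq2, and 13 in KO and 6 in WT cells had an unadjusted p under 0.05, against 6722 of 15020 and 4428 of 14804 of all genes. Between 1 and 5 Mb 1.64% were called in KO and 1.68% in WT cells, and between 5 and 20 Mb 2.68% and 0.901%. On the rest of chromosome 11 beyond 20 Mb, 4.27% and 1.31% were called.

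**Figure D4:**
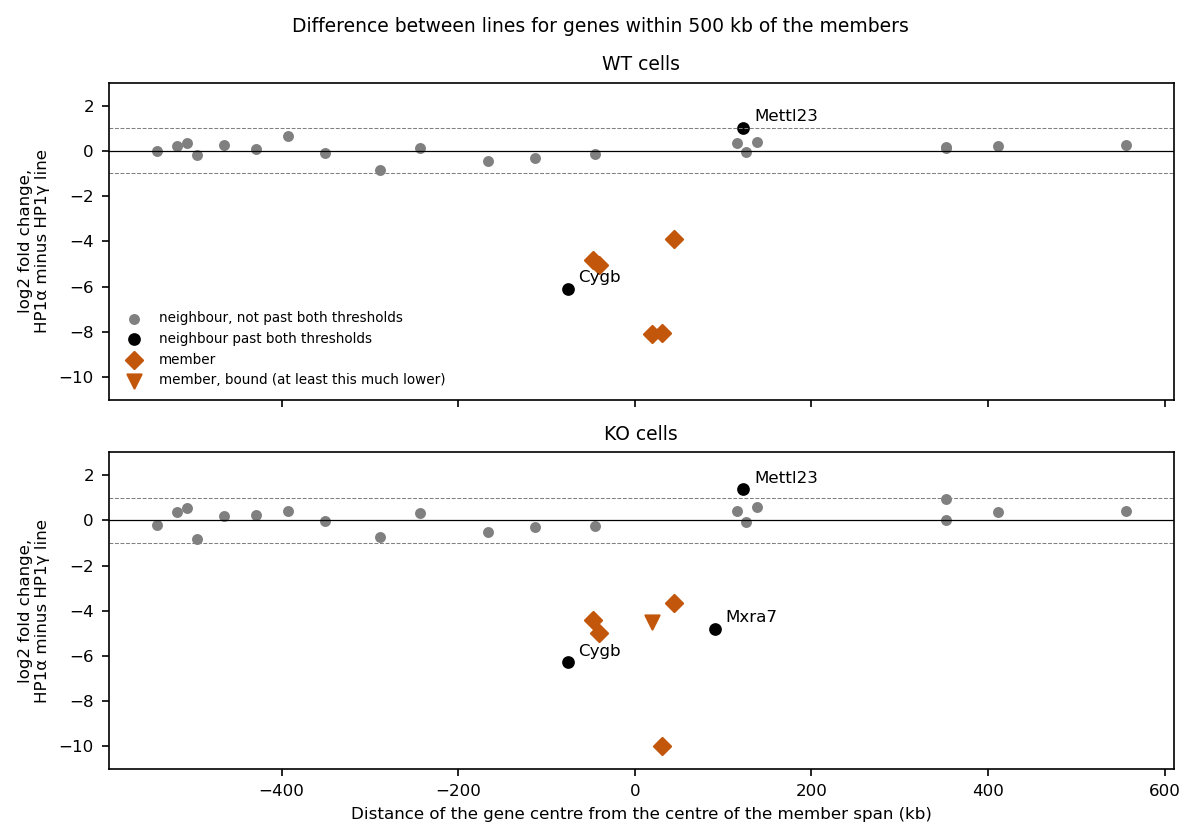
Log2 fold change of the HP1α line against the HP1γ line for tested genes within 500 kb, by distance (kb) of the centre of the gene from the centre of the span, in WT and KO cells. Diamonds are the 5 genes, with the triangle as a bound for Gm11735 in KO cells and its ratio of summed counts in WT cells. Cygb and, in KO cells, Mxra7 lie with them, whereas Mettl23 lies above 0 and the other genes lie between -1 and 1.

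The other sialyltransferases did not show such a difference. Of 18 further sialyltransferase genes 13 were tested and none was called in any comparison by edgeR or DESeq2. At an unadjusted p under 0.05 there were 6 in KO and 4 in WT cells, where all genes gave the shares named above (6722 of 15020 and 4428 of 14804). Their log2 fold changes between the lines were between -0.53 and 0.60 in KO cells (median 0.10, against 0.01 for all genes) and between -0.45 and 0.49 in WT cells (median 0.05, against 0.02). In KO cells 3 were higher and 1 lower in the HP1α line at an adjusted p under 0.05 without the threshold on size, and in WT cells 1 and 1. Of all genes, 4921 of 15020 in KO and 1896 of 14804 in WT cells passed that adjusted p. St6gal1, which sialylates N-glycans, had the highest mean level over the 16 samples (89.5 TPM), followed by St3gal1 (63.4 TPM), which caps the core of O-glycans, and St3gal6 (52.5 TPM). St3gal1 was somewhat higher in the HP1α line, with 75.9 TPM in KO and 73.0 TPM in WT against 52.2 and 52.4 TPM in the HP1γ line (log2 fold change 0.60, adjusted p = 0.00816 in KO cells in edgeR). In the HP1γ line, the longer identifier of St6galnac2 was at a level like that of St3gal1 and St3gal6 (51.8 and 52.2 TPM). In the HP1α line it was below St3gal5 (3.06 TPM in KO and 2.88 TPM in WT), the lowest of the 13 by mean level.

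Within its own subfamily, St6galnac4 (29.4 TPM on average), St6galnac3 (8.30 TPM) and St6galnac6 (7.28 TPM) were tested, and St6galnac5 was near 0. Their log2 fold changes in KO cells were 0.01, -0.53 and -0.16, of which that of St6galnac3 had an adjusted p of 0.0206 in edgeR. St6galnac1 in the HP1γ line (19.1 TPM in KO, 24.7 TPM in WT) lay between St6galnac3 and St6galnac4.

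**Figure D5:**
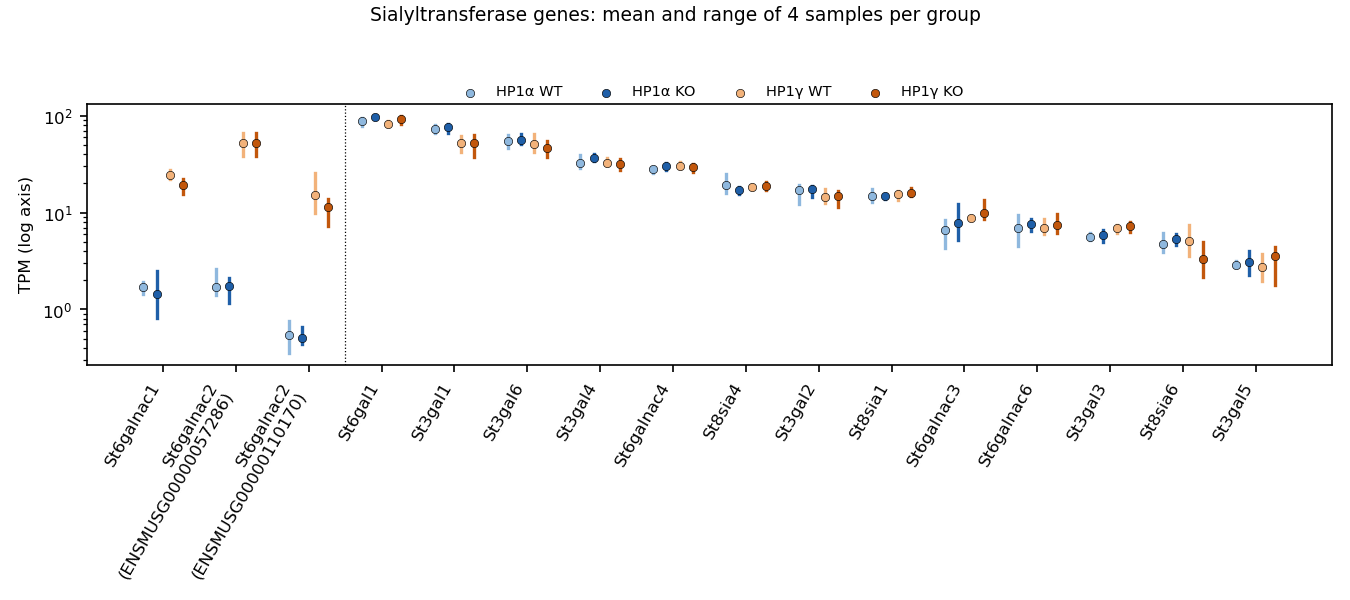
Level of St6galnac1, both identifiers of St6galnac2 and the 13 other tested sialyltransferase genes, in TPM on a log axis. Points are means and bars the range of 4 samples per group. The first 3 are separated by line, at up to 2.60 TPM in the HP1α line and at least 7.32 TPM in the HP1γ line, whereas the colours lie close together for the others.

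The enzymes that build the O-glycans on which both genes act, and those that supply or remove sialic acid, were likewise not called. Of 17 genes of mucin-type O-glycan synthesis 14 were tested, with log2 fold changes between the KO groups of -0.47 to 0.31 (median 0.06). Galnt6 (116.2 TPM), Galnt1 (79.2 TPM) and Galnt10 (67.0 TPM), which start the chains, had the highest levels of this list. Of these, Galnt6 was higher in HP1α KO with a log2 fold change of 0.31 (adjusted p = 0.00263 in edgeR), and C1galt1, which extends the first sugar to the core, was lower with -0.35 (adjusted p = 0.0078 in edgeR). Of 14 genes of sialic acid supply and removal 11 were tested, with log2 fold changes of -0.81 to 0.52 (median 0.11). Cmas, which activates sialic acid, had the highest level (74.7 TPM), followed by Nans (58.4 TPM), which makes its phosphate, and Cmah (32.9 TPM), which hydroxylates it. In KO cells 3 genes of this list were higher and 2 lower at an adjusted p under 0.05 without the threshold on size, and 2 and 1 in O-glycan synthesis, against 4921 of 15020 of all genes. Gne, which starts sialic acid synthesis, and Neu1, a lysosomal sialidase, were higher in the HP1α line, with 0.52 (adjusted p = 0.0198 in edgeR) and 0.43 (adjusted p = 0.00207). The activating enzyme Cmas was lower in the HP1α line, with -0.41 in KO cells (adjusted p = 0.00672 in edgeR) and -0.41 in WT cells (adjusted p = 0.0305). Nanp was lower as well and had the largest change of this list in KO cells, with -0.81 (adjusted p = 0.0107 in edgeR). In WT cells Nanp had -0.60 (adjusted p = 0.13 in edgeR). In these lists too, edgeR called no gene in either line comparison, with 5 and 6 unadjusted p under 0.05 in KO and 3 and 7 in WT cells, and none by edgeR or DESeq2 for the loss of HP1α or HP1γ or for the difference between them (at most 1 unadjusted p under 0.05 in each list). DESeq2 called 1 gene between KO groups, Gcnt3, which edgeR's filter removed and which was at 0.0124 TPM in HP1α KO and 0.104 TPM in HP1γ KO.

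The genes with a pattern over the 16 samples most like that of St6galnac1 were sought among 15771 genes, by the root mean square difference of log2 CPM centred on each gene's mean. Outside the 5 genes these were Trim16 (0.492), Fbxw10 (0.683), Ubb-ps (0.946), Scrt1 (0.958) and Amotl2 (0.972). Trim16 was at 0.975 to 1.94 CPM in the HP1α line and at 22.1 to 40.1 CPM in the HP1γ line. Trim16 and Fbxw10 overlap each other on chromosome 11 (62711057 to 62768295), far from the locus, and the other 3 are on chromosomes 14, 15 and 9. On the same measure Gm11735 was at 0.480, the identifiers of St6galnac2 at 0.501 and 0.738 and BC018473 at 2.47. Gm11735 and BC018473 reached 0 CPM in the HP1α line, where log2 CPM depends on the constant added before the logarithm. Their places in this order therefore depend on that constant. The likeness is a description, as the 16 samples share their line.

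Markers of other cells were examined because in bulk samples fewer cells of a type and less RNA per cell cannot be told apart. Erythroid markers (Hbb-bt, Hba-a1 and Alas2) summed to 10.8 to 60.4 CPM in HP1α KO and to 28.6 to 415.6 CPM in HP1γ KO, and all 3 were called lower in HP1α KO. In WT cells the sums overlapped (5.31 to 173.5 against 15.3 to 183.2 CPM) and none was called by edgeR. The HP1γ KO sample with the least erythroid RNA, replicate 3 with 28.6 CPM, held St6galnac1 at 29.9, St6galnac2 (ENSMUSG00000057286) at 54.3 and BC018473 at 75.0 CPM. It was the lowest of its group for St6galnac2, BC018473, Gm11735 and Cygb. In HP1γ WT, the sample lowest for these genes, replicate 3, had the most erythroid RNA (183.2 CPM). Replicate 1 of that group had the least (15.3 CPM) and the highest St6galnac2 (ENSMUSG00000057286, 119.7 CPM). Epithelial markers (Epcam, Krt8, Krt18 and Cdh1) summed to 3.25 to 6.32 CPM in HP1α KO and 5.35 to 15.0 CPM in HP1γ KO, and to 4.01 to 4.69 against 5.47 to 8.81 CPM in WT cells. These sums overlapped between the KO groups and did not overlap between the WT groups. Krt8 was at or below 0.0911 CPM in every sample, and only Cdh1 was called (lower in HP1α KO). In WT cells Cdh1 had a log2 fold change of -0.96 (adjusted p = 0.0421 in edgeR), below the threshold on size. Of 3 plasma cell markers, Sdc1 was called lower in the HP1α line in KO and WT cells (at 1.14 to 2.50 against 4.47 to 6.70 CPM in KO), while Xbp1 had log2 fold changes of -0.60 and -0.52 (adjusted p = 0.00288 and 0.0257 in edgeR), below the threshold on size, and Jchain had 1.28 and 0.75 (adjusted p = 0.0608 and 0.302). None of the tested markers of B cells (6.17 to 24.5 CPM summed over all samples), CD8 T cells, NK cells, myeloid or naive cells was called by edgeR in either line comparison. Of all genes, 4.33% were called in KO and 1.9% in WT cells. Ncr1 was tested in neither comparison and S100a8 not in WT cells. In WT cells Cd8a had a log2 fold change of -1.21 and Ccr7 of -0.60 (adjusted p = 0.0677 and 0.0685 in edgeR). Lyz2 had 0.88 in the other direction (adjusted p = 0.129 in edgeR). The part of these cells in the difference between the lines was not tested.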

How the data were processed

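RNA-Seq of 16 samples of splenic memory CD4+ T cells was used, grouped by the submitters' titles. Estimated counts per gene, not normalized, were deposited by the authors after adapter trimming, STAR alignment to GRCm39 and Salmon quantification (11.6% are not whole). TPM were also deposited by the authors and keep no depth. A label describing transferred cells does not match the account of the memory cells and was not used. Positions are from GENCODE vM39 on GRCm39, a later release than the authors' annotation.

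Estimated counts were rounded and compared with edgeR 4.0.16 in R 4.3.3 (TMM, filterByExpr with a minimum count of 10, glmQLFit and glmQLFTest, Benjamini-Hochberg adjustment over all genes), 8 samples per comparison and 16 for the interaction. A call required an adjusted p under 0.05 together with a log2 fold change beyond 1 in either direction. Exact permutation tests were two-sided, on log2(CPM + 0.1), for 15 comparisons of the 5 genes. Transcripts were aligned with blastn 2.17.0. The steps were tested on simulated data.

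Named are the 5 genes, neighbours within 500 kb past both thresholds and the nearest on either side, list genes past both thresholds or among the 3 highest by TPM, the 5 genes most like St6galnac1, and Cbx5 and Cbx3. Ubald2, Ube2o, Snhg16, St6galnac3 to St6galnac6, St3gal5, C1galt1, Gcnt3, Gne, Neu1, Nanp and the markers were named after their values were seen. The genes and lists were chosen with earlier results of these data known. Alternatives were DESeq2 1.42.0, RLE size factors, no filter, limma 3.58.1 on log2(TPM + 1) or log2(TPM + 0.1), all 16 samples in one fit, a replicate block, summed St6galnac2 identifiers, windows of 250 and 1000 kb, and the omission of each sample. No 2 samples of a group agreed within sampling noise. One gene of the marker lists is not reported here.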

Additional observations from a re-analysis of the deposited data

Results flagged for a closer look

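Gm11735 was at 0.0312 CPM in HP1α WT replicate 1 and at 0 in the other 3 samples of that group, which set this sample apart from the rest of its group. The value is a single rounded count, below the limit of 3 counts. It was the only value set apart among 19 sets of 4 samples that were examined. With the other 3 values at 0, any value above 0 is set apart by this rule. The rate of about 1 in 20 by chance therefore does not apply to it.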

How the results depend on the processing

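All 5 genes were called lower in the HP1α line in KO and in WT cells, and none was called between KO and WT or in the interaction, under each alternative run (as 4 genes where the counts of both St6galnac2 identifiers were summed). These calls are not independent evidence for a difference. The genes were chosen from the WT comparison, and BC018473 and Gm11735 passed the filter only through the HP1γ samples. In the main fits, 4.33% of all genes were called between KO groups and 1.9% between WT groups. Between KO and WT of the HP1α line, BC018473 and Gm11735 did not pass that filter in the main fit. Over the alternatives the log2 fold change between KO groups was -4.02 to -3.06 for St6galnac1, -5.12 to -4.25 and -4.56 to -2.99 for the identifiers of St6galnac2, -10.38 to -5.72 for BC018473 and -9.17 to -1.62 for Gm11735. The ends nearest to 0 came from log2(TPM + 1), which understates changes of low genes. On the TPM scale the log2 ratio of mean BC018473 levels between KO groups was 9.38. Counts over all genes moved more. The 282 genes called between WT groups became 102 with log2(TPM + 1), 125 with the replicate block and 122 to 343 without single samples (136 and 177 without HP1α WT replicates 1 and 2, 122 and 137 without HP1γ WT replicates 1 and 2). The 651 genes between KO groups became 278 with log2(TPM + 1), and 518 to 797 without single samples. For the loss of HP1α, 2 genes were called by DESeq2, 1 each with log2(TPM + 0.1), log2(TPM + 1) and no filter, and 0 to 3 without single samples (3 without HP1α WT replicate 3). For the loss of HP1γ, 35 genes became 97 with DESeq2, 18 with log2(TPM + 1) and 23 to 32 without single samples (23 without HP1γ KO replicate 1). The 5 of the interaction became 37 with DESeq2, 8 with log2(TPM + 1), 11 with no filter and 5 to 9 without single samples (9 and 8 without HP1α WT replicates 3 and 4). Neighbours called in WT cells numbered 1 with log2(TPM + 0.1) and with log2(TPM + 1) and 1 to 2 without single samples. In KO cells they numbered 1 with log2(TPM + 1), 5 with no filter and 3 to 4 without single samples. The cause was not tested. Same-numbered samples did not deviate together throughout (correlations of -0.204 to -0.0699 in the WT, -0.105 to 0.088 in the KO line comparison, 0.0958 to 0.252 within the HP1α and 0.0121 to 0.15 within the HP1γ line), so that the numbers were not taken as pairs. Within the lines, 3 of 4 HP1α KO samples were closest to the WT sample of their own number, and 1 of 4 HP1γ KO samples was. The permutation tests did not use the numbers, and pairs within a line were not excluded. With the replicate block 592 genes were called between KO groups, 0 for the loss of HP1α, 38 for that of HP1γ and 5 in the interaction. Depth limits the HP1α values of BC018473, with 0 to 22 counts per sample, and of Gm11735, with at most 1.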
